A study of Homo sapiens with 12 samples.

Results

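Cerebral organoids are three-dimensional cultures in which pluripotent stem cells form neural tissue that resembles the early embryonic brain. Bulk RNA sequencing of such organoids, grown from the established human embryonic stem cell line H1, was compared here between preparations of the same genotype and day. The comparison takes 4 of the 12 libraries of the series, chosen by their labels alone: wildtype organoids at day 10 labelled with the code B16 (replicates 1 and 2), against wildtype organoids at day 10 labelled B27 (replicate 3) and B29 (replicate 4). The labels do not say what a code stands for, and no treatment other than the day of culture is labelled. The other libraries are 4 from organoids lacking FEZ1 at day 10 (replicates 1 and 2 with B16, replicate 3 with B27, replicate 4 with B29), and 2 wildtype and 2 FEZ1-knockout libraries at day 60, all with B16. FEZ1 encodes an adaptor of kinesin motors that is best known from axonal transport, and the series asks how its loss affects progenitors and neuron migration. No label says that replicates are separate cultures. The p-values therefore reflect only how far libraries spread within groups, estimated over all 12 libraries and not the 4 compared alone. That spread may be technical. The group of B27 and B29 holds 1 library of each code, and whatever distinguishes B16 from the other codes cannot be told apart from the code itself.

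In the vertebrate embryo, the edge of the neural plate gives rise to lineages that do not stay in the brain. Neural crest cells leave the dorsal neural tube, guided by transcription factors such as FOXD3, SOX10, TFAP2A and TFAP2B, and form sensory ganglia, glia, pigment cells and head mesenchyme. Cranial placodes, thickenings of the ectoderm marked by EYA2, add sensory neurons, while the roof plate at the dorsal midline secretes WNT and BMP ligands that pattern both. The anterior neural plate itself forms forebrain and eye field under RAX, SIX3 and LHX2. Differences between these lineages were described with 40 lists of marker and pathway genes, which hold 684 distinct genes. Of these, 615 passed the filter on low counts, 67 were in the count table but did not pass, and 2 were not in the table.

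Sequences 5′ of 4 genes that were called higher in B16 are shown as examples of windows that hold an E-box. They were picked from the raised genes with their motif counts known, so that each holds 1, and do not represent the raised genes as a whole. They are POU4F1 and ISL1 (transcription factors of sensory neurons), NHLH1 (a transcription factor of newborn neurons) and WNT1 (a roof plate ligand). Each is the 250 bases before the start, on the gene's strand, from RefSeq's promoter table for GRCh38.p14, a newer build than the hg19 of the counts. Capitals mark E-boxes spelled CAGCTG (its own reverse complement) or CATCTG (searched on both strands), hexamers that proneural bHLH factors such as NEUROD1 are known to bind.
POU4F1, minus strand, chr13:78603553-78603802: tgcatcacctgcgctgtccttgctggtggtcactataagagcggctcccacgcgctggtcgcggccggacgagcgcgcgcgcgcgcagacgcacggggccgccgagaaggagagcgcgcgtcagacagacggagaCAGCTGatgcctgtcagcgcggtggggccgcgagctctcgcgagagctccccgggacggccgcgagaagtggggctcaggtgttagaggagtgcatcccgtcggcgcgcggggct
ISL1, plus strand, chr5:51383198-51383447: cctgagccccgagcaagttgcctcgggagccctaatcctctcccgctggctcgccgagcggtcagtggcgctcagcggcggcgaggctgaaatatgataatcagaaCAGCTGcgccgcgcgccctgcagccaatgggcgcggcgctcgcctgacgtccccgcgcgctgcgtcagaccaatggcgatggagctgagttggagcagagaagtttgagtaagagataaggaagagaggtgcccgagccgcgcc
NHLH1, plus strand, chr1:160366821-160367070: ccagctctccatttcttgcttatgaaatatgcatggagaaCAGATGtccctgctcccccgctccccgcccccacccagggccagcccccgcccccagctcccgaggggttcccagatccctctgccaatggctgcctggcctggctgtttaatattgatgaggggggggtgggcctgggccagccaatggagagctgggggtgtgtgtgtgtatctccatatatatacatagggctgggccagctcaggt
WNT1, plus strand, chr12:48978072-48978321: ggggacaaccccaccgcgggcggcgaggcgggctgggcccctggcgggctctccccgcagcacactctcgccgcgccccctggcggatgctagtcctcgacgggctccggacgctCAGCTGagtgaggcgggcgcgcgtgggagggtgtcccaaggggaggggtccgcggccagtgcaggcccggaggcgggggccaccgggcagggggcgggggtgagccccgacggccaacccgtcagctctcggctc
The E-box is CAGCTG in POU4F1, ISL1 and WNT1 and CATCTG in NHLH1. The windows of some other raised genes, TLX3, TFAP2B, FOXD3, NEUROD1, SYT4, NRP2, LMX1B, GDF7 and WNT3A, hold neither spelling. Those of EGR2, EBF1, IRX1, PPP1R17 and CHRNB4, also raised, hold CAGCTG, and that of MAML2 holds both. Of 27305 promoter windows of the same length, 13.8% held CAGCTG and 12.2% held CATCTG on either strand. Among tested genes 13209 had a window, with shares of 13.1% and 8.85%. Genes that were higher in B16 had shares of 14.9% and 10.8% (1439 windows), and genes that were lower 13.9% and 7.67% (808 windows). Shares within lists rest on few windows, and differences between lists were not tested. Of the proneural and neuroblast genes, 5 of the 15 with a window held CAGCTG and 5 held CATCTG. Other lists had similar shares. CAGCTG was in 3 of 9 placode windows and 4 of 12 midbrain and hindbrain windows, and CATCTG in 3 of 8 mesoderm and muscle windows. Of 11 crest specifiers none held either, of 18 sensory neuron genes 2 held CAGCTG and 2 CATCTG, and of 22 roof plate genes 2 and none did. The AP-2 motif GCCNNNGGC (the same on both strands) was in 26.1% of the windows of higher genes and in 26.9% of those of all tested genes. The SOX motif ACAAT, on either strand, was in 14.0% and 15.5%. A match is a description of letters, not of binding.

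Total counts were 22.75 M and 19.31 M in the B16 libraries and 19.80 M and 18.06 M in B27 and B29, and between 15.67 M and 21.93 M in the other 8. FEZ1 was at 40.5, 43.3, 45.5 and 49.0 CPM (library-scaled counts, edgeR's CPM with TMM factors) in the 4 wildtype day 10 libraries in the order of their replicate numbers. It was at 19.4 to 22.74 CPM in the day 10 knockout libraries, at 239.9 and 197 CPM in the day 60 wildtype libraries and at 47.6 and 48.4 CPM in the day 60 knockout libraries, so each genotype label matched its FEZ1 level. Ribosomal protein genes took 10.4% and 10.3% of the counts in B16 and 9.30% and 9.33% in B27 and B29; their part in the results was not tested. Knockout B16 replicate 1 stood apart, at 14.3% against 8.61% to 10.7% in the other knockout day 10 libraries. Over the tested genes, the difference in log2 CPM had a standard deviation of 0.37 between the B16 libraries and of 0.35 between B27 and B29, against 0.88 to 1.02 between a B16 library and one of the other codes. More than 4-fold differences separated 24 and 21 genes within the groups and 692 to 982 genes across them. B27 and B29, which carry different codes, were thus as near to each other as the B16 replicates were. No pair of replicates agreed within counting noise, so all 4 were kept as separate libraries.

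Wildtype day 10 organoids of B16 differed from those of B27 and B29 in 2983 of 17757 genes tested with edgeR's quasi-likelihood test (adjusted p below 0.05). Of the tested genes, 1921 (10.8%) were higher in B16 and 1062 (5.98%) were lower. Large differences were mostly rises: 743 higher genes but 78 lower genes differed at least 4-fold, and 285 against 5 at least 16-fold. In the list genes, 184 were called higher and 78 lower. In bulk samples, fewer cells of a type and less RNA per cell cannot be told apart, and this holds for every gene below. A gene with counts in B16 alone passes the filter on low counts through those libraries, so the counts and medians of lists describe the members tested and are not a test of the list. The median log2 fold change over all tested genes was 0. With wildtype replicates 1, 2, 3 or 4 left out in turn, the calls fell to 1997, 999, 1104 and 1152. The share of calls that were higher was 64.4%, and 71.4%, 86.9%, 79.8% and 78.5% with these libraries left out. It was 71.6% with the day 10 libraries alone, 52.6% of 7769 calls with the 4 wildtype day 10 libraries alone, and 76.4% of 1884 calls with B27 and B29 as separate groups.

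Among the genes with the largest rise by the naming rule were TLX3, ISL1, MYOCD, WNT1, CACNG2, SST, POU4F1, KCNH6 and KLHL40, and TLX3, ISL1 and POU4F1 belong to the sensory neuron list. TLX3, a homeobox factor of sensory relay neurons, stood at 24.3 and 30.4 CPM in the B16 libraries and at 0 and 0 CPM in B27 and B29. The B16 libraries held TLX3 counts where the other codes held none, which is at least 334-fold higher against a floor of 3 counts over the group (adjusted p = 4.00e-04). MYOCD, a coactivator of smooth and cardiac muscle genes, and CACNG2, an auxiliary subunit of AMPA receptors, were likewise without a count in B27 and B29. MYOCD (3.88 and 6.99 CPM in B16) was at least 65.4-fold higher, and CACNG2 (5.21 and 5.26 CPM) at least 64.6-fold higher. KCNH6, a voltage-gated potassium channel, was at 12.3 and 12.2 CPM in the B16 libraries and at 0 and 0.0570 CPM in B27 and B29, a ratio of 455 (95% exact interval 81.3 to 18000). KLHL40, a protein that stabilises sarcomeres, was at 10.4 and 12.7 CPM in the B16 libraries and at 0 and 0.0570 CPM in B27 and B29, a ratio of 424 (95% exact interval 75.7 to 16770). Each ratio rests on 1 count over B27 and B29. SST, the neuropeptide somatostatin, was at 91.5 and 103 CPM in the B16 libraries and at 0.206 and 0.228 CPM in B27 and B29 (log2 fold change 8.77 with SE 0.56, adjusted p = 5.11e-06). The naming rule drew these genes only from called genes with no overlap between the groups, so neither trait is a result.

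Many neural crest transcription factors were low in B27 and B29 and far higher in B16. Of 20 crest specifiers tested, 13 rose, none fell and 7 were not called, with a median log2 fold change of 2.99. TFAP2B, an AP-2 factor of the neural plate border and early crest, was at 251 and 387 CPM in the B16 libraries and at 3.65 and 2.22 CPM in B27 and B29 (log2 fold change 6.75 with SE 0.65, adjusted p = 6.81e-05). FOXD3, which keeps crest cells multipotent, was at 40.7 and 64.95 CPM in the B16 libraries and at 0.617 and 0.685 CPM in B27 and B29 (log2 fold change 6.33 with SE 0.68, adjusted p = 1.37e-04). ETS1, a factor of cranial crest, was at 47.2 and 73.2 CPM in the B16 libraries and at 0.668 and 0.856 CPM in B27 and B29 (log2 fold change 6.30 with SE 0.95, adjusted p = 0.00137). For each of these factors both B16 libraries lay far above B27 and B29, and replicate 2 above replicate 1. RXRG, a retinoid receptor of migrating crest, was at 4.99 and 6.67 CPM in the B16 libraries and at 0 and 0.114 CPM in B27 and B29, a ratio of 107 (95% exact interval 29.2 to 885) on 2 counts over B27 and B29. Members outside the naming rule, chosen after their values were seen, included SNAI2 (14.7 and 21.3 CPM against 0.771 and 0.570 CPM), a driver of the epithelial to mesenchymal transition that releases crest cells, and TFAP2C (22.3 and 29.1 CPM against 2.26 and 1.43 CPM). The 7 members not called included TWIST1 (0.579 and 1.199 CPM against 0.463 and 0.513 CPM), SOX8 (25.8 and 27.8 CPM against 35.5 and 32.4 CPM) and NGFR (98.8 and 114 CPM against 73.2 and 61.96 CPM), and the log2 fold changes of the 7 lay between -0.62 and 0.84. With any 1 wildtype library left out, 11 to 13 members were called higher.

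Genes of crest-derived glia and Schwann cell precursors followed the same order of libraries. Of 19 tested, 15 rose and 1 fell (POU3F1), with a median log2 fold change of 3.30. SOX10, the factor that keeps crest and glial identity, was at 184 and 278 CPM in the B16 libraries and at 5.24 and 5.42 CPM in B27 and B29 (log2 fold change 5.44 with SE 0.42, adjusted p = 1.48e-05). EGR2, which drives myelination in Schwann cells and marks segments of the hindbrain, was at 6.55 and 9.696 CPM in the B16 libraries and at 0.206 and 0.0570 CPM in B27 and B29 (log2 fold change 5.85 with SE 0.51, adjusted p = 3.43e-05). GFRA3, the receptor of artemin on sensory and glial precursors, was at 5.88 and 8.601 CPM in the B16 libraries and at 0.0514 and 0.0570 CPM in B27 and B29, a ratio of 132 (95% exact interval 36.2 to 1094). The glial calcium-binding protein S100B (1.34 and 1.72 CPM against 0.0514 and 0.0570 CPM), chosen after its values were seen, was called too. CDH19, another Schwann precursor marker, did not pass the filter. Among 18 genes of crest migration and adhesion, 10 rose and 2 fell, with a median of 1.22. NRP2, a semaphorin receptor of migrating crest, was at 215 and 310.5 CPM in the B16 libraries and at 5.65 and 5.13 CPM in B27 and B29 (log2 fold change 5.60 with SE 0.21, adjusted p = 7.67e-07). CDH6, a cadherin of premigratory crest, was at 455 and 641 CPM in the B16 libraries and at 53.7 and 57.8 CPM in B27 and B29 (log2 fold change 3.30 with SE 0.22, adjusted p = 7.92e-06). TFAP2A was at 55.4 and 79.8 CPM in the B16 libraries and at 1.03 and 2.11 CPM in B27 and B29 (log2 fold change 5.44 with SE 0.61, adjusted p = 1.84e-04). EDNRB, an endothelin receptor of crest, was at 7.26 and 11.5 CPM in the B16 libraries and at 0.617 and 0.570 CPM in B27 and B29 (log2 fold change 3.96 with SE 0.39, adjusted p = 7.17e-05). No member of the migration list was called lower when any 1 wildtype library was left out.

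**Figure D1:**
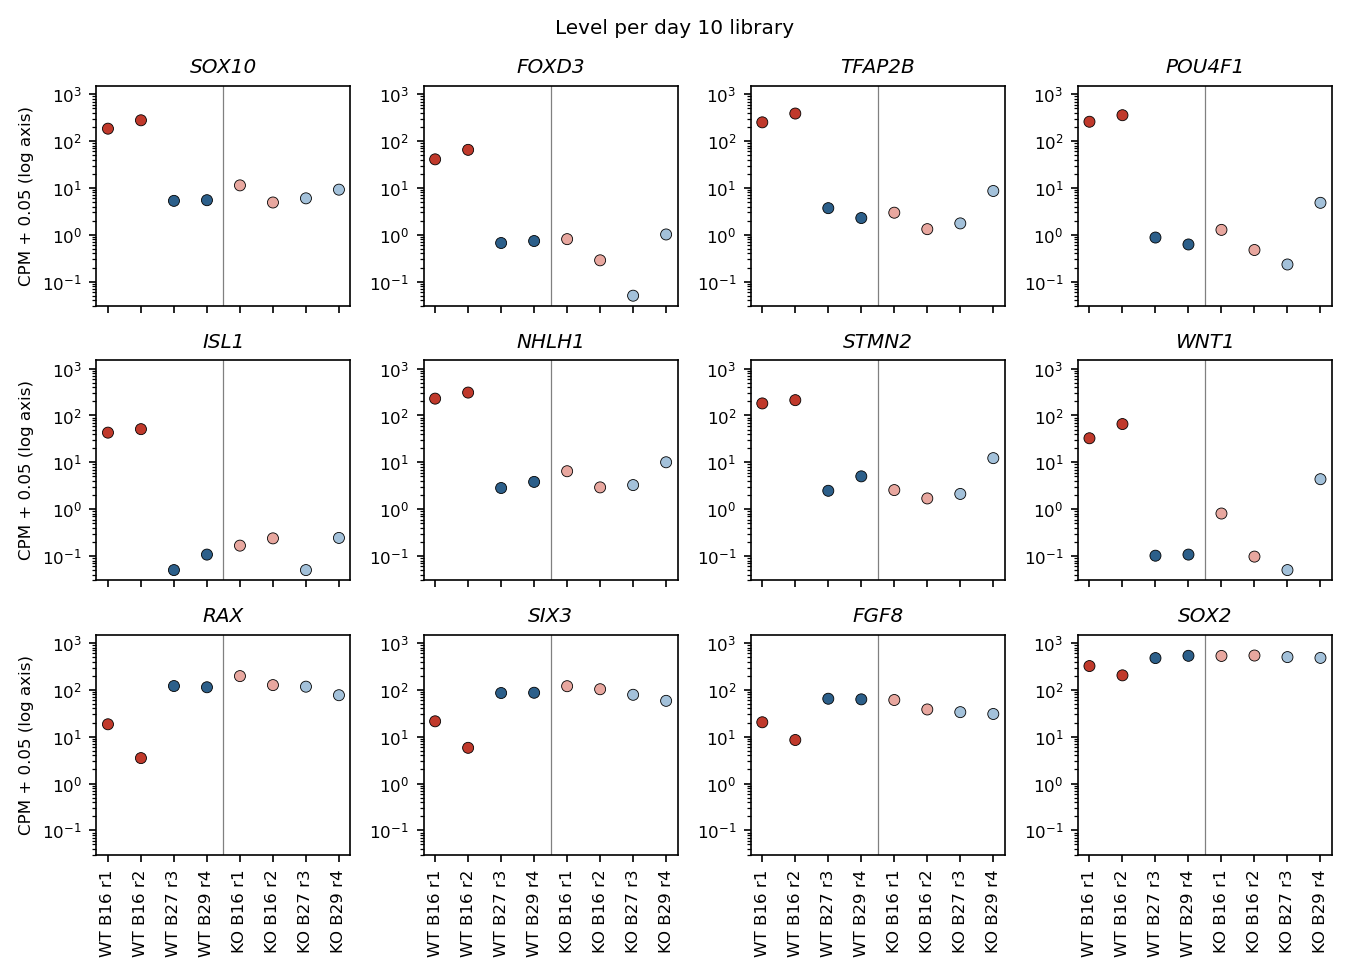
Level of 12 genes in each of the 8 day 10 libraries, as CPM plus 0.05 on a log axis, with wildtype (WT) left and FEZ1 knockout (KO) right of the grey line; r1 to r4 are replicate numbers, red marks B16 and blue B27 and B29. The B16 wildtype points are the highest of all 8 libraries for SOX10, FOXD3, TFAP2B, POU4F1, ISL1, NHLH1, STMN2 and WNT1 and the lowest for RAX, SIX3, FGF8 and SOX2.

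Sensory neuron genes had the largest median of the 40 lists. Of 20 tested, 15 rose and none fell, with a median log2 fold change of 4.65, or 4.28 with genes lacking counts in B27 and B29 at their lower bound. POU4F1, a POU factor of somatosensory and visceral sensory neurons, was at 259 and 357 CPM in the B16 libraries and at 0.822 and 0.570 CPM in B27 and B29 (log2 fold change 8.76 with SE 0.89, adjusted p = 9.65e-05). ISL1, a LIM homeobox factor of sensory and motor neurons, was at 42.9 and 50.98 CPM in the B16 libraries and at 0 and 0.0570 CPM in B27 and B29, a ratio of 1725 (95% exact interval 309 to 68170) on 1 count over B27 and B29. The windows of both are printed above. Of the members outside the naming rule, DRGX (7.57 and 10.6 CPM against 0 and 0.114 CPM) and PRDM12 (49.2 and 71.8 CPM against 0.411 and 0.628 CPM), factors of pain-sensing neurons, and the proneural factor NEUROG1 (61.03 and 87.4 CPM against 0.977 and 1.03 CPM) were called, while RUNX3 (0.356 and 0.209 CPM against 0.720 and 0.856 CPM), NEUROG2 (9.62 and 6.72 CPM against 9.87 and 11.1 CPM) and PRPH (2.94 and 3.54 CPM against 1.696 and 1.08 CPM) were not. PRPH encodes peripherin, an intermediate filament of peripheral neurons, and RUNX3 is a factor of proprioceptive neurons. The summed level of the list was 633 and 839 CPM in the B16 libraries and 52.8 and 54.4 CPM in B27 and B29. Leaving out B29 replicate 4 left 9 members higher, and leaving out the others 11 to 13.

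The placode genes were divided. Of 17 tested, 5 rose and 2 fell, with a median of 0.71. EYA2, a transcriptional coactivator of placodes, was at 85.8 and 124 CPM in the B16 libraries and at 4.16 and 4.34 CPM in B27 and B29 (log2 fold change 4.62 with SE 0.26, adjusted p = 3.61e-06). IRX1 was at 21.5 and 29.7 CPM in the B16 libraries and at 4.63 and 5.02 CPM in B27 and B29 (log2 fold change 2.40 with SE 0.36, adjusted p = 0.00118). In the other direction, PAX8, an early factor of the otic placode and of the midbrain-hindbrain boundary, was at 4.05 and 2.14 CPM in the B16 libraries and at 16.2 and 11.98 CPM in B27 and B29 (log2 fold change -2.17 with SE 0.39, adjusted p = 0.00384). FGF19, the other lower member, was named after its values were seen and stood at 0.0891 and 0 CPM in the B16 libraries and at 3.44 and 1.83 CPM in B27 and B29 (log2 fold change -5.61, adjusted p = 7.66e-04). Lens and otic genes such as FOXE3 (0.713 and 0.782 CPM against 0.257 and 0.114 CPM) and PAX2 (5.79 and 6.41 CPM against 20.3 and 20.9 CPM) were not called. When B16 replicate 2 or B29 was left out, 3 members were called higher. Without B16 replicate 2, 1 was called lower. Of 11 autonomic neuron genes, 2 rose, among them the nicotinic subunit CHRNB4 (14.9 and 19.7 CPM against 3.19 and 2.57 CPM, log2 fold change 2.58, adjusted p = 7.57e-05). HAND1 and TBX20 did not pass the filter, and TH (7.39 and 6.26 CPM against 6.73 and 7.36 CPM) was not called.

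Genes shared by neurons of many kinds were higher in B16. Of 28 pan-neuronal genes tested, 22 rose and 1 fell, with a median log2 fold change of 2.80. STMN2, a tubulin regulator of growing axons, was at 181 and 212 CPM in the B16 libraries and at 2.42 and 4.96 CPM in B27 and B29 (log2 fold change 5.74 with SE 0.62, adjusted p = 1.45e-04). SYT4, a synaptotagmin of neurons, was at 49.8 and 60.3 CPM in the B16 libraries and at 0.514 and 0.628 CPM in B27 and B29 (log2 fold change 6.58 with SE 0.55, adjusted p = 2.63e-05). ELAVL4, a neuronal RNA-binding protein, was at 43.97 and 43.9 CPM in the B16 libraries and at 1.39 and 1.65 CPM in B27 and B29 (log2 fold change 4.85 with SE 0.29, adjusted p = 4.07e-06). Its B16 values were nearly equal, as were those of B27 and B29. SNAP25, a component of the vesicle fusion machinery, was at 9.27 and 13.7 CPM in the B16 libraries and at 0.206 and 0.342 CPM in B27 and B29 (log2 fold change 5.37 with SE 0.39, adjusted p = 1.22e-05). With any 1 wildtype library left out, 21 members were called higher. The summed level of the list was 4059 and 4547 CPM in the B16 libraries and 1541 and 1621 CPM in B27 and B29.

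Proneural and neuroblast factors, which commit progenitors to a neuronal fate, rose in 14 of 20 tested and fell in none, with a median of 2.83. NHLH1 was at 229 and 308 CPM in the B16 libraries and at 2.78 and 3.77 CPM in B27 and B29 (log2 fold change 6.36 with SE 0.51, adjusted p = 2.02e-05). NEUROD1 was at 81.2 and 98.7 CPM in the B16 libraries and at 0.565 and 1.08 CPM in B27 and B29 (log2 fold change 6.77 with SE 0.47, adjusted p = 8.78e-06). PPP1R17, a phosphatase inhibitor of intermediate progenitors, was at 64.7 and 73.3 CPM in the B16 libraries and at 0.925 and 0.856 CPM in B27 and B29 (log2 fold change 6.26 with SE 0.30, adjusted p = 2.97e-06). In each of these genes both B16 libraries lay far above both others. Of the Notch pathway genes, which restrain this step, 6 of 22 rose and none fell, with a median of 0.08. The ligand DLL3 was at 53.6 and 81.2 CPM in the B16 libraries and at 9.92 and 9.87 CPM in B27 and B29 (log2 fold change 2.77 with SE 0.25, adjusted p = 4.32e-05), and the target genes HEY2 (7.35 and 7.61 CPM against 0.822 and 0.913 CPM, log2 fold change 3.10, adjusted p = 4.91e-04) and HEYL (49.1 and 69.9 CPM against 10.5 and 10.2 CPM, log2 fold change 2.52, adjusted p = 0.00262) also rose. MAML2, a coactivator of Notch, was at 12.1 and 14.6 CPM in the B16 libraries and at 4.21 and 4.62 CPM in B27 and B29 (log2 fold change 1.60, adjusted p = 0.00628). With any of wildtype replicates 2, 3 or 4 left out, 3 Notch genes were called.

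Some genes of early brain neurons rose as well. Of 14 genes of Cajal-Retzius cells and the preplate, the earliest neurons of the cortex, 6 rose and none fell, with a median of 1.56. RELN, the secreted protein reelin, was at 51.5 and 74.3 CPM in the B16 libraries and at 0.668 and 0.513 CPM in B27 and B29 (log2 fold change 6.71 with SE 0.38, adjusted p = 3.84e-06). The EBF factors of early differentiating neurons rose, with EBF1 at 39.9 and 45.8 CPM in the B16 libraries and at 0.617 and 1.03 CPM in B27 and B29 (log2 fold change 5.70 with SE 0.31, adjusted p = 3.61e-06), EBF2 at 16.9 and 20.2 CPM against 0.771 and 0.913 CPM (log2 fold change 4.45, adjusted p = 8.81e-05) and EBF3 at 59.9 and 72.1 CPM against 1.75 and 3.31 CPM (log2 fold change 4.71, adjusted p = 4.48e-06). Members not called included, picked with values in view, TP73, which stood at 1.02 and 1.46 CPM against 1.34 and 1.31 CPM, TBR1 at 1.29 and 1.15 CPM against 0.411 and 0.913 CPM and LHX5 at 69.6 and 72.04 CPM against 79.3 and 71.8 CPM. With B27 or B29 left out, 4 members were called higher. Of 18 genes of dorsal hindbrain and spinal interneurons, 6 rose and 2 fell (median 0.90). The median was 0.32 without B16 replicate 1 and 3.27 with the day 10 libraries alone, where 12 of the genes were tested. Those named by the rule, TLX3, POU4F1, LMX1B and FOXD3, also belong to the sensory, roof plate or crest lists. With B27 or B29 left out, 4 members were called higher.

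Positional genes behind the forebrain changed in part. Of 20 midbrain and hindbrain genes, 5 rose and 3 fell, with a median of 1.33, or 0.81 with genes lacking counts at their bound. LMX1B, a LIM homeobox factor of dorsal midline and monoamine neurons, was at 48.5 and 77.04 CPM in the B16 libraries and at 0.925 and 0.513 CPM in B27 and B29 (log2 fold change 6.42 with SE 0.85, adjusted p = 5.78e-04). LMX1A was at 20.4 and 36.7 CPM in the B16 libraries and at 4.68 and 4.56 CPM in B27 and B29 (log2 fold change 2.62 with SE 0.29, adjusted p = 1.58e-04). The engrailed genes, which define the midbrain-hindbrain territory, were not called: EN1 stood at 1.47 and 0.782 CPM against 0.257 and 0.171 CPM and EN2 at 0.223 and 0.209 CPM against 0.0514 and 0 CPM. Without B16 replicate 2, 2 members were called lower. No HOX gene was called among 22 tested by edgeR (1 at an unadjusted p below 0.05, none by DESeq2), with 0.445 and 1.15 CPM summed over the clusters in B16 and 0.0514 and 0 CPM in B27 and B29. HOXC4 was at 0.134 and 0.209 CPM in the B16 libraries and at 0 and 0 CPM in B27 and B29 (adjusted p = 0.116), so HOX genes were barely detected in either group.

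The roof plate list changed nearly as often as the crest lists. Of 26 genes tested, 16 rose and 1 fell, with a median log2 fold change of 1.88. WNT1, a ligand that drives growth of dorsal progenitors and crest, was at 32.6 and 65.5 CPM in the B16 libraries and at 0.0514 and 0.0570 CPM in B27 and B29, a ratio of 883 (95% exact interval 244 to 7293) on 2 counts over B27 and B29. WNT1 was higher in replicate 2 than in replicate 1 of B16 and at 1 count in each other library. GDF7, a BMP family ligand of the roof plate, was at 53.99 and 103 CPM in the B16 libraries and at 2.31 and 1.83 CPM in B27 and B29 (log2 fold change 5.23 with SE 0.64, adjusted p = 3.34e-04). WNT3A, a dorsal midline ligand, was at 6.46 and 10.5 CPM in the B16 libraries and at 0.257 and 0.114 CPM in B27 and B29 (log2 fold change 5.44 with SE 1.05, adjusted p = 0.00563). PAX3, a factor of dorsal neural tube and crest, was at 113 and 175 CPM in the B16 libraries and at 7.09 and 7.13 CPM in B27 and B29 (log2 fold change 4.34 with SE 0.62, adjusted p = 9.20e-04). With wildtype replicates 1, 2, 3 or 4 left out in turn, 14, 10, 11 and 9 members were called higher and none lower.

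Of 31 WNT pathway genes, 13 rose and 7 fell, with a median of 0.14. WNT4 was at 13.8 and 23.8 CPM in the B16 libraries and at 0.617 and 0.399 CPM in B27 and B29 (log2 fold change 5.18 with SE 0.75, adjusted p = 0.00101). Among the receptors, FZD5, a frizzled of forebrain and eye, was at 21.8 and 7.402 CPM in the B16 libraries and at 179.8 and 147 CPM in B27 and B29 (log2 fold change -3.48 with SE 0.54, adjusted p = 0.00155). FZD8 (10.4 and 7.298 CPM against 34.2 and 27.3 CPM) also fell, while FZD10 (6.06 and 12.4 CPM against 3.14 and 2.62 CPM), a frizzled of the dorsal neural tube, rose; both were named after their values were seen. With B16 replicate 2, B27 or B29 left out, 9, 9 and 8 members were higher and 2, 3 and 2 lower. Of 26 BMP pathway genes, 9 rose and 4 fell, with a median of 0.72. The ligand BMP5 was at 20.4 and 25.9 CPM in the B16 libraries and at 1.03 and 0.856 CPM in B27 and B29 (log2 fold change 4.61 with SE 0.53, adjusted p = 2.13e-04). BMP4 was at 4.81 and 7.45 CPM in the B16 libraries and at 0.565 and 0.171 CPM in B27 and B29 (log2 fold change 4.0 with SE 0.71, adjusted p = 0.00351). MSX2, a target of BMP signals, was at 3.56 and 7.66 CPM in the B16 libraries and at 1.34 and 1.54 CPM in B27 and B29 (log2 fold change 1.96, adjusted p = 0.0258), whereas the target ID1 (59.6 and 59.2 CPM against 154 and 142 CPM), named after its values were seen, fell. For BMP genes, leaving out B16 replicate 2, B27 or B29 gave 4, 5 and 4 calls that were higher and none lower. Leaving out B16 replicate 1 gave 1 lower call.

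Ligands and receptors known to act in crest and sensory cells rose in part. Of 15 endothelin and neurotrophin genes, 9 rose and none fell, with a median of 2.28. BDNF, a neurotrophin, was at 9.98 and 17.8 CPM in the B16 libraries and at 0.771 and 0.685 CPM in B27 and B29 (log2 fold change 4.24 with SE 0.36, adjusted p = 3.17e-05). Of 28 axon guidance genes, 15 rose and 4 fell, with a median of 1.29. SEMA3C was at 26.3 and 36.4 CPM in the B16 libraries and at 0.514 and 0.456 CPM in B27 and B29 (log2 fold change 5.99 with SE 0.40, adjusted p = 7.12e-06), EPHA5 at 7.04 and 6.88 CPM against 0.360 and 0.171 CPM (log2 fold change 4.65, adjusted p = 2.59e-05) and SLIT3 at 13.01 and 23.4 CPM against 1.18 and 1.31 CPM (log2 fold change 3.86, adjusted p = 0.0148). With any 1 wildtype library left out, 1 guidance gene was called lower.

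Mesenchyme genes rose by less. Of 25 tested, 7 rose and none fell, with a median log2 fold change of 0.65. COL1A2, a chain of fibrillar collagen, was at 551 and 739 CPM in the B16 libraries and at 146 and 139 CPM in B27 and B29 (log2 fold change 2.18 with SE 0.21, adjusted p = 7.45e-05). COL1A1 was at 362 and 477 CPM in the B16 libraries and at 114 and 109.7 CPM in B27 and B29 (log2 fold change 1.91 with SE 0.26, adjusted p = 7.42e-04). COL5A2 was at 127 and 157 CPM in the B16 libraries and at 17.4 and 19.1 CPM in B27 and B29 (log2 fold change 2.96 with SE 0.38, adjusted p = 4.24e-04), and FN1, fibronectin, at 243 and 299 CPM against 105 and 98.1 CPM (log2 fold change 1.42, adjusted p = 0.00175). The collagens were thus expressed in all 4 libraries and were higher in B16. Whichever of B16 replicate 2, B27 or B29 was left out, 4 members were called higher. Of 23 genes of head mesenchyme and branchial arches, 3 rose and 1 fell, with a median of 0.22. These counts were near the shares over all tested genes, 10.8% higher and 5.98% lower. EDNRA, an endothelin receptor of arch mesenchyme, was at 23.7 and 34.8 CPM in the B16 libraries and at 3.598 and 4.56 CPM in B27 and B29 (log2 fold change 2.84, adjusted p = 6.84e-04). Of 15 cartilage genes, 3 rose: ACAN (6.01 and 7.35 CPM against 0.360 and 0.628 CPM), SOX9 (62.3 and 78.3 CPM against 27.6 and 32.1 CPM) and SOX6 (25.97 and 29.5 CPM against 12.2 and 13.3 CPM); with B27 left out none was called, and with B16 replicate 2 left out 1. Of 14 mesoderm and muscle genes, 4 rose. These were ACTC1, cardiac actin, at 112 and 158 CPM in the B16 libraries and at 3.03 and 2.45 CPM in B27 and B29 (log2 fold change 5.62 with SE 0.33, adjusted p = 3.84e-06), PAX3 as above, and MYL1 (0.401 and 0.678 CPM against 0 and 0 CPM) and NKX2-5 (3.21 and 5.16 CPM against 0 and 0 CPM), named after their values were seen. TBXT, MIXL1, MYF5, MYOD1 and MYOG did not pass the filter.

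Forebrain and eye field regulators fell in B16. Of 20 forebrain genes tested, 10 fell and 3 rose, with a median log2 fold change of -0.63. SIX6, a factor of eye field and hypothalamus, was at 0.445 and 0.209 CPM in the B16 libraries and at 9.97 and 5.93 CPM in B27 and B29 (log2 fold change -4.55 with SE 0.57, adjusted p = 3.85e-04). RAX, which sets up the eye field, was at 18.4 and 3.44 CPM in the B16 libraries and at 121 and 114 CPM in B27 and B29 (log2 fold change -3.41 with SE 0.61, adjusted p = 0.00354). SIX3, which represses WNT genes in the anterior neural plate of the mouse, was at 21.2 and 5.73 CPM in the B16 libraries and at 85.5 and 86.7 CPM in B27 and B29 (log2 fold change -2.66 with SE 0.49, adjusted p = 0.00445). In each of them B16 replicate 2 was lower than replicate 1, and both were below B27 and B29. LHX2 (43.2 and 12.6 CPM against 132 and 134 CPM), a regulator of the telencephalon named after its values were seen, also fell, while OTX2 (224 and 198 CPM against 338 and 338 CPM, log2 fold change -0.68, adjusted p = 0.00366), a factor of forebrain and midbrain, fell by less. PAX6 was not called (204 and 185 CPM against 191 and 226 CPM). Higher members included NR2E1 (7.44 and 8.03 CPM against 0.977 and 1.31 CPM, log2 fold change 2.76, adjusted p = 0.0430) and, named after its values were seen, BARHL2; no member was called higher when any 1 wildtype library was left out. Between 8 and 10 members were called lower in these fits.

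Of 17 eye field and retina genes, 6 fell and 3 rose, with a median of -0.59. Among the higher members TBX3, which acts in dorsal retina but also in crest and limb, was at 42.2 and 52.7 CPM in the B16 libraries and at 0.565 and 0.228 CPM in B27 and B29 (log2 fold change 6.85 with SE 0.84, adjusted p = 3.34e-04), and POU4F2, a factor of retinal ganglion cells that sensory neurons share, was at 4.45 and 4.54 CPM in the B16 libraries and at 0 and 0 CPM in B27 and B29 and was called higher as well. The third higher member was CRX (2.94 and 4.64 CPM against 1.28 and 0.742 CPM). Leaving out B16 replicate 2 or B29 left 2 higher members. Among the genes with the largest falls were CAPN6, a calpain that binds microtubules, at 105 and 18.7 CPM in the B16 libraries and at 819 and 713 CPM in B27 and B29 (log2 fold change -3.63 with SE 0.63, adjusted p = 0.00300), and the retinal genes ABCA4 (1.87 and 1.46 CPM against 13.7 and 10.95 CPM, log2 fold change -2.88, adjusted p = 3.56e-04), MYO3B (5.03 and 2.19 CPM against 23.3 and 26.8 CPM, log2 fold change -2.78, adjusted p = 4.71e-04) and LRAT (3.296 and 2.29 CPM against 18.8 and 19.4 CPM, log2 fold change -2.76, adjusted p = 2.23e-04). FOXA1, a pioneer factor of endoderm and ventral midline, was at 2.005 and 0.782 CPM in the B16 libraries and at 12.6 and 12.8 CPM in B27 and B29 (log2 fold change -3.16 with SE 0.63, adjusted p = 0.00696). CAPN6 was higher in replicate 1 than in replicate 2 of B16, and both replicates lay below B27 and B29.

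**Figure D2:**
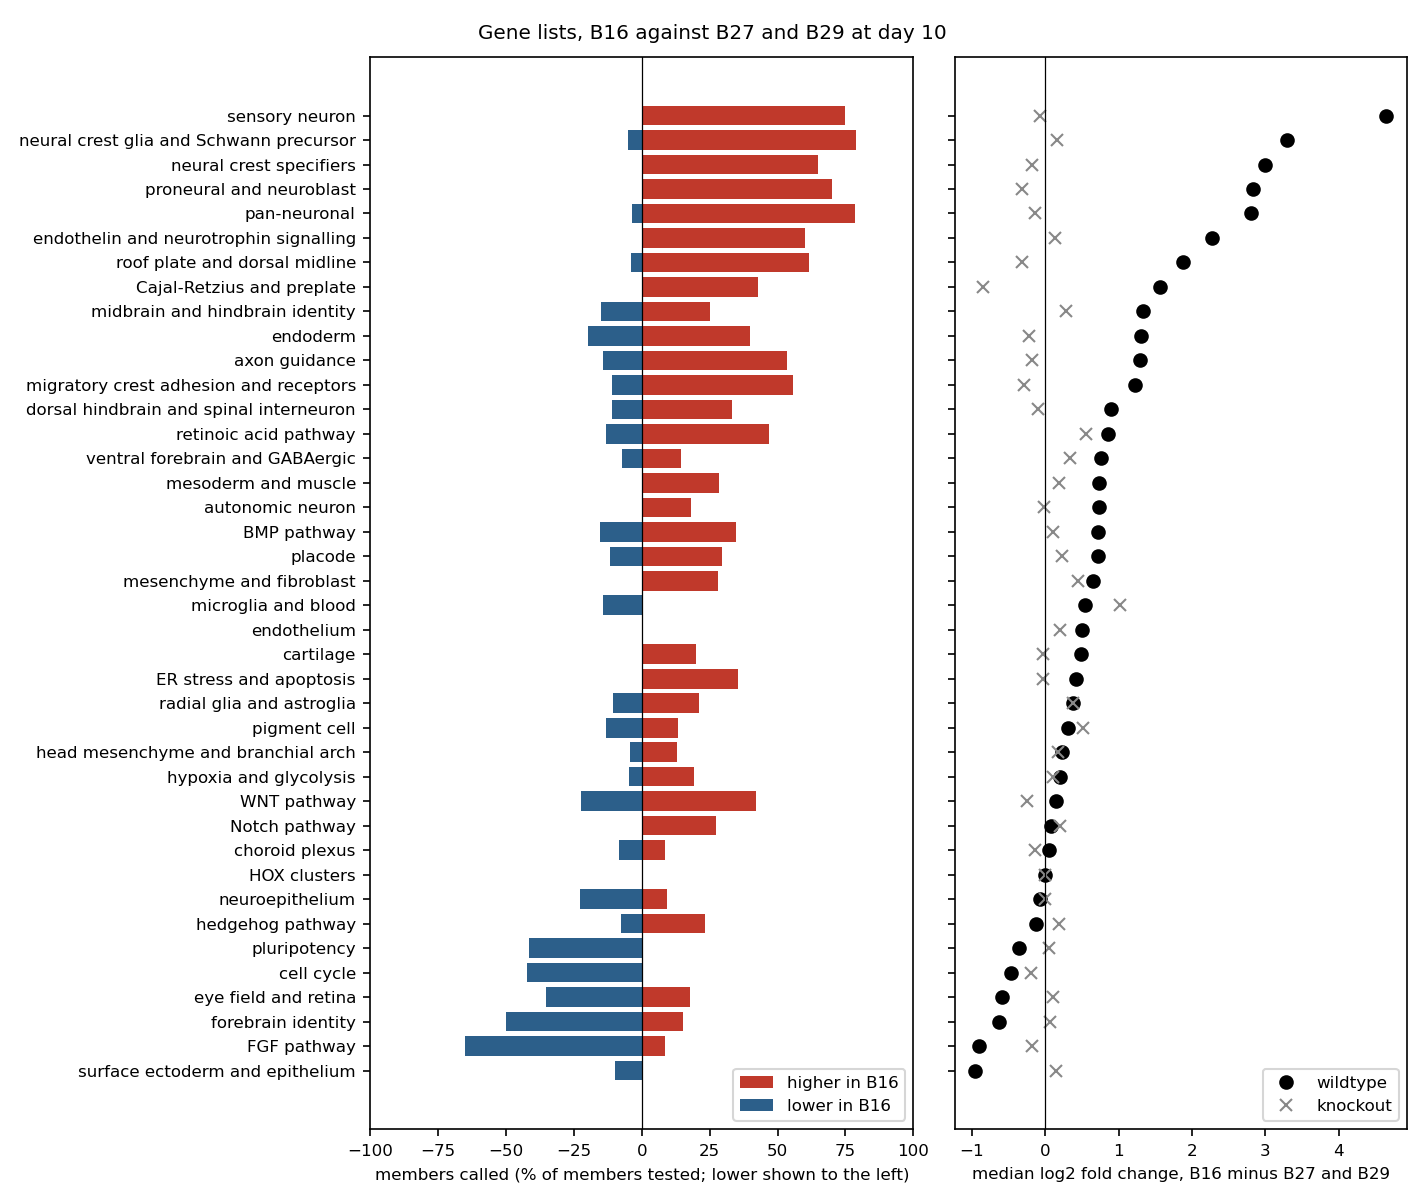
Left, share of the tested members of each of the 40 lists that were called higher (red) or lower (blue, drawn to the left) in B16 wildtype libraries; right, median log2 fold change of the list for B16 minus B27 and B29 in wildtype (filled points) and in FEZ1-knockout libraries (crosses). In wildtype the medians run from 4.65 for sensory neuron genes to -0.96 for surface ectoderm genes; in knockout they lie between -0.85 and 1.02.

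FGF signalling genes had the largest share of lower members among the 40 lists. Of 23 tested, 15 fell and 2 rose, with a median of -0.91. FGF8, a ligand of the anterior neural ridge and the midbrain-hindbrain boundary, was at 20.3 and 8.44 CPM in the B16 libraries and at 64.6 and 62.6 CPM in B27 and B29 (log2 fold change -2.14 with SE 0.34, adjusted p = 0.00177). FGF17, of the same subfamily, was at 4.37 and 0.730 CPM in the B16 libraries and at 29.4 and 22.9 CPM in B27 and B29 (log2 fold change -3.33 with SE 0.52, adjusted p = 0.00157). ETV4, a transcription factor that FGF signals induce, was at 9.27 and 2.81 CPM in the B16 libraries and at 33.9 and 28.98 CPM in B27 and B29 (log2 fold change -2.36 with SE 0.49, adjusted p = 0.00830). The feedback inhibitor SPRY4 was at 3.56 and 2.87 CPM in the B16 libraries and at 18.9 and 8.79 CPM in B27 and B29 (log2 fold change -2.10 with SE 0.44, adjusted p = 0.00902). For SPRY4, B27 was well above B29. The lower members included ligands, targets and inhibitors, and the 2 higher members were FGF18 (1.11 and 0.938 CPM against 0.154 and 0 CPM) and FGFR2 (118 and 142 CPM against 75.2 and 73.8 CPM), named after their values were seen. With B16 replicate 2 or B27 left out, 7 and 8 members were called lower.

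Most neuroepithelium genes were not called, and part of the cell cycle genes fell. Of 22 neuroepithelium genes, 5 fell and 2 rose, with a median of -0.07. Over all tested genes, 5.98% were lower and 10.8% higher. SOX2, a factor of neural and pluripotent stem cells, was at 322 and 204 CPM in the B16 libraries and at 477 and 533 CPM in B27 and B29 (log2 fold change -0.94 with SE 0.20, adjusted p = 0.00840), PROM1 at 15.5 and 6.52 CPM against 43.2 and 43.7 CPM (log2 fold change -1.97, adjusted p = 0.00532), SOX21 at 67.9 and 22.68 CPM against 175 and 163 CPM (log2 fold change -1.90, adjusted p = 0.00847) and SALL2 at 283 and 212 CPM against 599 and 576 CPM (log2 fold change -1.25, adjusted p = 3.67e-04). NR2F1, a nuclear receptor of caudal forebrain and of crest, was at 289.6 and 380.0 CPM in the B16 libraries and at 41.7 and 63.8 CPM in B27 and B29 (log2 fold change 2.67 with SE 0.34, adjusted p = 4.17e-04). PAX6 and NES (779 and 674 CPM against 672 and 701 CPM) were not called, and the summed level of the list was 5732 and 5131 CPM in the B16 libraries and 6405 and 6647 CPM in B27 and B29, so neuroepithelial genes were abundant in all 4 libraries. Leaving out B16 replicate 2, B27 or B29 gave 3 lower calls and 1 higher. Of 26 cell cycle genes, 11 fell and none rose, with a median of -0.47. KIF20A, a mitotic kinesin, was at 102 and 85.4 CPM in the B16 libraries and at 166 and 169 CPM in B27 and B29 (log2 fold change -0.84 with SE 0.12, adjusted p = 9.35e-04), the replication clamp PCNA at 99.6 and 85.5 CPM against 168 and 154 CPM (log2 fold change -0.80, adjusted p = 0.00370), the helicase subunit MCM3 at 235 and 196 CPM against 382 and 353 CPM (log2 fold change -0.77, adjusted p = 0.00256) and the mitotic kinase CDK1 at 85.97 and 77.5 CPM against 139 and 139 CPM (log2 fold change -0.77, adjusted p = 0.00512). All 26 had both B16 libraries below or above both others, but every log2 fold change was between -0.84 and 0.51, and with wildtype replicates 1, 2, 3 or 4 left out 9, 1, 3 and 5 genes were called. Among all 17757 tested genes, 13178 also had both B16 libraries below or above both others. Of 12 pluripotency genes, 5 fell, with a median of -0.36. POU5F1 was at 1.96 and 2.71 CPM against 6.27 and 5.19 CPM (log2 fold change -1.30, adjusted p = 0.0483) and DNMT3B at 172 and 158 CPM against 256 and 243 CPM (log2 fold change -0.60, adjusted p = 0.0201). NANOG, TDGF1 and PRDM14 did not pass the filter, and no more than 1 gene of the list was called with any 1 wildtype library left out.

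Lists of other tissues had few members called. Their counts stand beside shares of 10.8% higher and 5.98% lower over all tested genes, and several were near these shares. Surface ectoderm genes had the lowest median (-0.96 over 20 genes), but 2 were called lower, ESRP1 (3.43 and 3.44 CPM against 24.2 and 18.8 CPM, log2 fold change -2.64, adjusted p = 0.0486) and CLDN6 (14.9 and 14.1 CPM against 31.1 and 29.8 CPM, log2 fold change -1.07, adjusted p = 0.0327), neither with any 1 wildtype library left out. With the wildtype day 10 libraries fitted alone, 13 of 17 were lower and 1 higher. The keratins KRT5, KRT14 and KRT15 and the basal factor TP63 did not pass the filter. Of 5 endoderm genes tested of 17 listed, CXCR4 (89.2 and 111 CPM against 28.4 and 30.5 CPM, log2 fold change 1.76, adjusted p = 4.91e-04) and TTR (0.624 and 2.14 CPM against 0 and 0 CPM, named after its values were seen) rose and FOXA1 fell, while SOX17, GATA4, GATA6 and AFP did not pass. Both of the higher genes are also expressed outside endoderm, CXCR4 in migrating crest and neurons and TTR in choroid plexus. No endothelial gene was called among 10 by edgeR (1 at an unadjusted p below 0.05, 1 by DESeq2); CLDN5 was at 1.43 and 1.88 CPM against 0.154 and 0.285 CPM (adjusted p = 0.0933) and EMCN at 0 and 0.104 CPM against 0 and 0 CPM. Of 7 microglia and blood genes, AIF1 (2.94 and 2.35 CPM against 7.299 and 6.85 CPM, log2 fold change -1.41, adjusted p = 0.0317) fell, but not with any 1 wildtype library left out, and SPI1, ITGAM and the C1Q genes did not pass the filter. Pigment genes were split at 2 higher and 2 lower of 15, with RAB38 (3.74 and 2.55 CPM against 8.07 and 7.302 CPM) and GPR143 (7.22 and 5.94 CPM against 12.3 and 13.6 CPM), which act in melanosomes, lower; GPR143 was not called with any 1 wildtype library left out. Choroid plexus genes were split at 1 and 1 of 12. Of 14 ventral forebrain genes, 2 rose and GAD1, which makes GABA, fell (4.68 and 4.38 CPM against 13.1 and 13.8 CPM, log2 fold change -1.57, adjusted p = 8.70e-04). Of 19 radial glia genes, 4 rose and 2 fell; TNC, a matrix protein of radial glia and of crest paths, was at 118 and 123 CPM in the B16 libraries and at 17.99 and 13.5 CPM in B27 and B29 (log2 fold change 2.93 with SE 0.24, adjusted p = 2.51e-05), while SLC1A2 (10.2 and 6.88 CPM against 17.7 and 18.4 CPM) and PTPRZ1 (272 and 212 CPM against 452 and 475 CPM) fell, neither with any 1 wildtype library left out.

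Of 15 retinoic acid genes, 7 rose and 2 fell (median 0.85). The retinol transporter STRA6 was at 75.3 and 105 CPM against 35.5 and 29.6 CPM (log2 fold change 1.47, adjusted p = 0.00254), and ALDH1A3, a retinoic acid synthase of the eye field, at 1.203 and 0.990 CPM against 6.32 and 5.19 CPM (log2 fold change -2.38, adjusted p = 0.00158). ALDH1A3 thus differed in the direction opposite to STRA6. Of 13 hedgehog genes, 3 rose and 1 fell; the inhibitor HHIP was at 4.28 and 6.52 CPM against 0.514 and 0.742 CPM (log2 fold change 3.09, adjusted p = 0.00110) and GLI2 at 72.3 and 56.04 CPM against 104 and 106 CPM (log2 fold change -0.71, adjusted p = 0.0133), which was not called with B16 replicate 2, B27 or B29 left out. Of 17 genes of ER stress and apoptosis, 6 rose and none fell, among them DDIT3 (10.4 and 13.2 CPM against 5.91 and 3.99 CPM), GADD45A (27.8 and 38.4 CPM against 13.9 and 14.1 CPM), TRIB3 (5.301 and 5.37 CPM against 2.78 and 3.08 CPM) and PPP1R15A (61.3 and 71.4 CPM against 38.4 and 36.6 CPM); with B16 replicate 2 or B29 left out 1 was called. Of 21 hypoxia and glycolysis genes, 4 rose and 1 fell; NDRG1 was at 16.1 and 18.1 CPM against 7.71 and 7.42 CPM (log2 fold change 1.18, adjusted p = 6.17e-04), PFKP at 116 and 144 CPM against 66.5 and 64.7 CPM, EGLN3 at 14.4 and 20.9 CPM against 9.05 and 10.2 CPM and SLC2A3 at 367 and 325 CPM against 512 and 587 CPM. With B16 replicate 2 or B29 left out 1 of the hypoxia genes was higher. Other named genes lost their call with single libraries left out. SOX6, POU5F1, DNMT3B and TRIB3 were not called with any 1 wildtype library left out. WNT3A, MSX2, MAML2, SLIT3, PPP1R15A and EGLN3 were not called without B16 replicate 2, B27 or B29. RAB38, SOX9, PCNA, CDK1, ETV4 and SPRY4 were not called without B16 replicate 2 or B27, and SOX2, DDIT3, PFKP and SLC2A3 were not without B16 replicate 2 or B29. FOXA1, PAX8, OTX2 and MCM3 were not called without B16 replicate 2, SOX21 and ACAN without B27, and BMP4 without B29.

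The B16 libraries were not equal. Of the 1921 higher genes, 1640 were farther from B27 and B29 in replicate 2 than in replicate 1, and of the 1062 lower genes 945. Their median distance from the mean of B27 and B29 was 1.31 in replicate 1 and 1.59 in replicate 2 for the higher genes, and -0.65 and -0.87 for the lower genes, on the log2 CPM scale. Among list members it was 173 of 184 and 73 of 78. Between B27 and B29, B29 was above B27 in 50% of the higher genes and 46.7% of the lower genes. The comparison was made on genes that the same libraries had called, so it describes them and has no test.

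**Figure D3:**
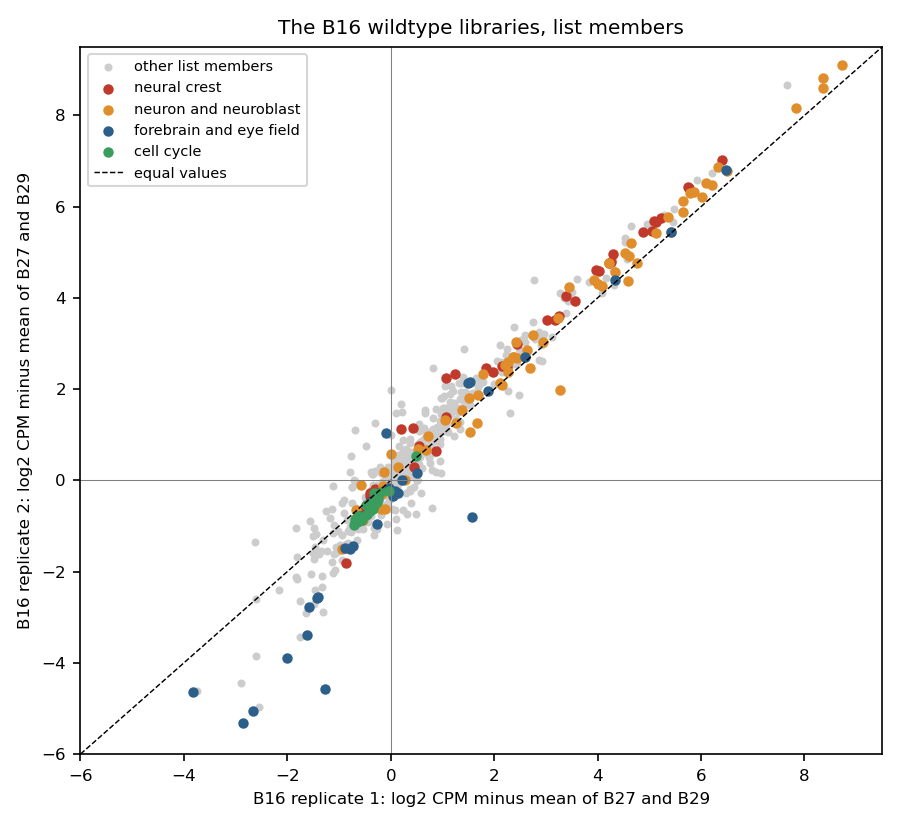
Each point is 1 of 615 list genes, with its log2 CPM minus the mean of B27 and B29 in B16 wildtype replicate 1 (horizontal) and replicate 2 (vertical); colours mark lists and the dashed line equal values. Many crest and neuron genes lie to the upper right, mostly above the line. Forebrain and eye field genes lie more often to the lower left, mostly below the line, with a median near -0.44. The groups overlap. Averaged over both replicates, crest genes run from -1.34 to 6.72 and neuron and neuroblast genes from -1.22 to 8.92. Forebrain and eye field genes run from -4.23 to 6.64.

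The same codes were compared in the FEZ1-knockout organoids. There, B16 differed from B27 and B29 in 534 genes (3.01% of those tested; 479 higher, 55 lower), and the medians of the leading lists were near 0. They were -0.18 for crest specifiers, -0.07 for sensory neurons, -0.14 for pan-neuronal genes, -0.32 for roof plate, 0.07 for forebrain and -0.18 for FGF genes. No gene of the crest specifier, sensory neuron, roof plate, forebrain, eye field or FGF lists was called in knockout by edgeR. Over their 115 distinct genes, 13 had an unadjusted p below 0.05, and DESeq2 called 5. Other lists did hold edgeR calls in knockout. The pan-neuronal, radial glia (TNC), axon guidance and ER stress lists each had 1 higher. The surface ectoderm and Cajal-Retzius lists each had 1 lower, in the latter EBF3, which rose in wildtype. The Cajal-Retzius median was -0.85 in knockout. The knockout count depended on its libraries: it was 397, 8203, 75 and 3 with knockout replicates 1, 2, 3 or 4 left out, and 0 (1452 at an unadjusted p below 0.05) when the 4 knockout day 10 libraries were fitted alone. Genes called in both genotypes in the same direction numbered 176, which is 5.90% of the wildtype and 33.0% of the knockout calls. Another 4 were called in opposite directions.

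For POU4F1, TFAP2B, SOX10 and WNT1, no knockout library of any code reached the levels of wildtype B16. POU4F1 was at 1.22 and 0.423 CPM in the B16 knockout libraries and 0.182 and 4.76 CPM in those of B27 and B29, and TFAP2B at 2.91 and 1.27 CPM in the B16 knockout libraries and 1.698 and 8.55 CPM in those of B27 and B29. SOX10 was at 11.3 and 4.84 CPM in the B16 knockout libraries and 5.94 and 9.13 CPM in those of B27 and B29. WNT1 was at 0.756 and 0.0469 CPM in the B16 knockout libraries and 0 and 4.31 CPM in those of B27 and B29. The highest knockout library for POU4F1, TFAP2B and WNT1 was B29 replicate 4, far below wildtype B16. RAX was at 196 and 126 CPM in the B16 knockout libraries and 117 and 76.8 CPM in those of B27 and B29, SIX3 at 58.2 to 119.6 CPM and FGF8 at 30.5 to 60.6 CPM, so every knockout library was above both wildtype B16 libraries for RAX.

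The difference of the code effect between genotypes was tested as an interaction in the same fit. It was called in 1057 genes, of which 788 (4.44%) had a code effect higher in wildtype and 269 (1.51%) lower. Of the crest specifiers 11 had a higher and none a lower difference, of the crest glia genes 12 and 1, of the sensory neuron genes 7 and none, and of the pan-neuronal genes 21 and none. Of the proneural genes 12 and none were called, of the roof plate genes 11 and none, of the forebrain genes 1 and 6, of the eye field genes 1 and 5, of the FGF genes 2 and 8, and of the cell cycle genes none and 2. TFAP2B had a log2 difference of 8.07, adjusted p = 7.03e-04; SOX10, of 5.35, adjusted p = 4.57e-04; and SIX6, of -5.13, adjusted p = 0.00272. For these genes the code effect of wildtype differed from that of knockout. TLX3, which had no wildtype B27 or B29 count, did not pass (adjusted p = 0.283). With knockout replicate 2 left out the count was 7026, and with wildtype replicates 2, 3 or 4 or knockout replicate 4 left out it was 443, 450, 470 and 330.

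**Figure D4:**
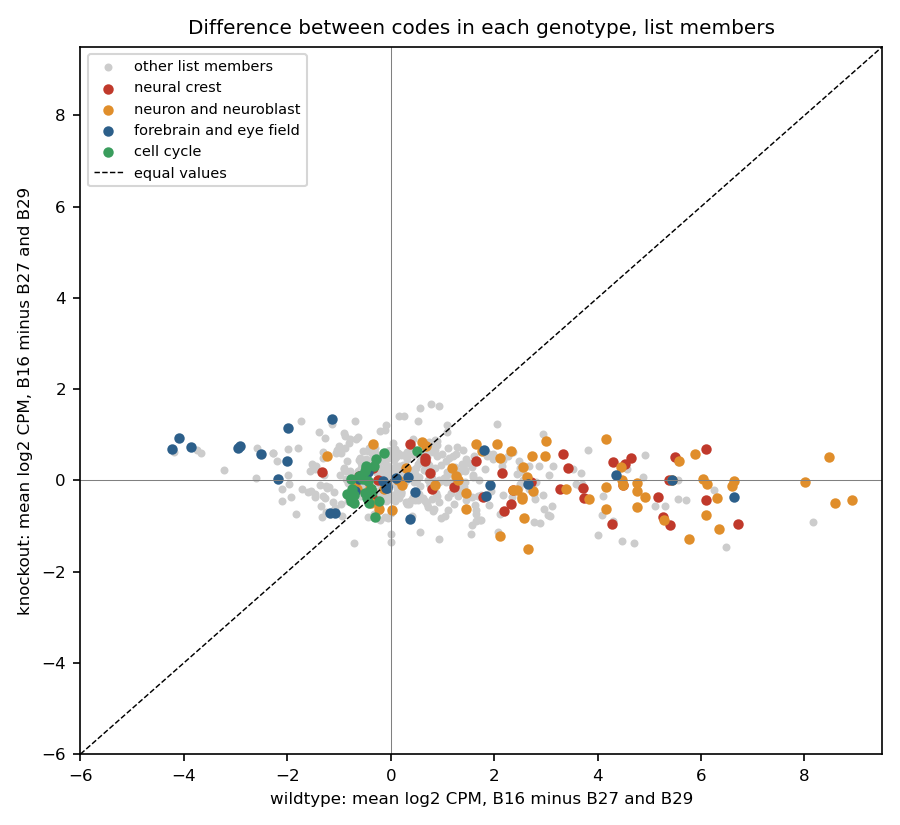
Each point is 1 of 615 list genes, with the mean log2 CPM of B16 minus that of B27 and B29 in wildtype (horizontal) and in FEZ1-knockout libraries (vertical) at day 10; the dashed line marks equal values. The 36 crest genes have a median of 3.0 in wildtype and -0.02 in knockout, the 66 neuron and neuroblast genes 2.64 and -0.11, and the 31 forebrain and eye field genes -0.44 and 0.04.

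**Figure D5:**
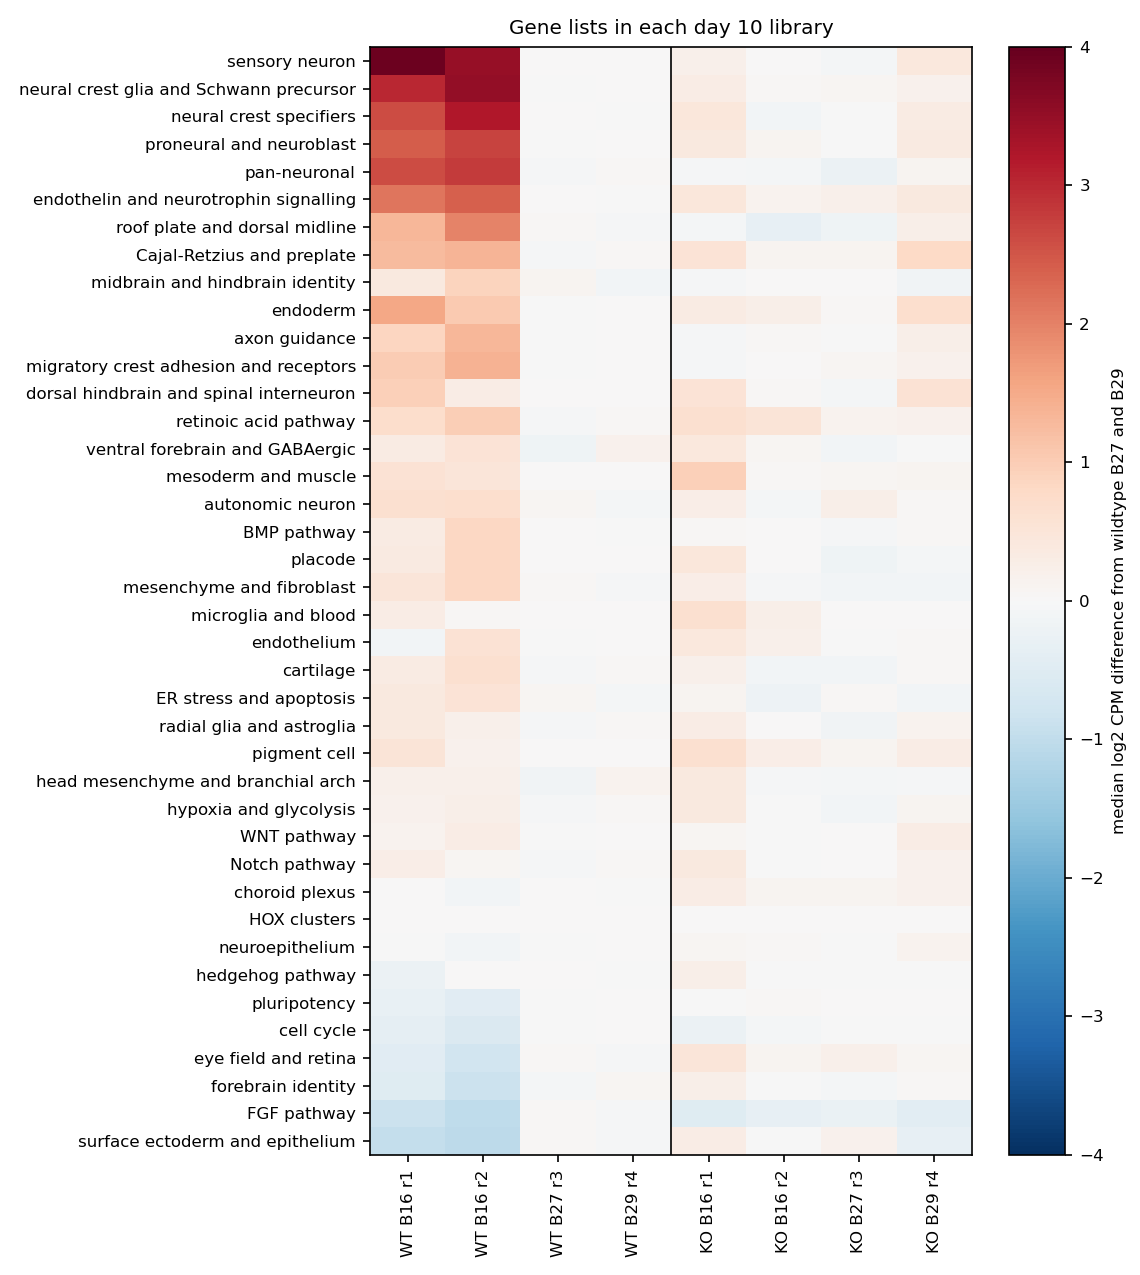
Median log2 CPM difference of each list from the mean of wildtype B27 and B29, in each day 10 library (WT left of the line, KO right; r1 to r4 are replicate numbers). The 2 B16 wildtype columns hold the strong red and blue values, up to 3.93 for sensory neuron genes, and the 4 knockout columns stay between -0.50 and 0.95.

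At day 60 the wildtype libraries all carry B16, and the means of both show which of these genes older organoids with that code held. POU4F1 averaged 2.16 CPM, TFAP2B 0.901 CPM, SOX10 2.23 CPM, FOXD3 0.517 CPM and WNT1 0.930 CPM, all far below day 10 B16. These genes do not stand for their lists. The crest receptor EDNRB averaged 27.9 CPM, above both day 10 B16 libraries (7.26 and 11.5 CPM). Summed sensory neuron genes were at 475 and 404 CPM at day 60, against 633 and 839 CPM in day 10 B16. Summed crest specifiers were at 807 and 672 CPM, against 1152 and 1616 CPM. The pan-neuronal gene STMN2 averaged 763 CPM and LHX2 288 CPM, above every day 10 wildtype library. COL1A2 averaged 690.0 CPM, between the levels of both B16 libraries at day 10. No day 60 library has another code, so how the codes would differ at day 60 is not known from these data.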

How the data were processed

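TRIzol was used for RNA extraction and a company prepared and sequenced the libraries, per the labels' protocols. The authors deposited raw counts per gene. The submitters' processing notes list hg19, STAR, HTSeq and DESeq2. Tool versions, the annotation and the strand setting are not given in the sources, so overlapping, antisense and near-identical genes may share reads. The authors' normalized table and test table were not used. Of 28207 genes, 3350 had no count and 17757 passed edgeR's filterByExpr.

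All 12 libraries entered 1 edgeR quasi-likelihood fit (edgeR 4.0.16, limma 3.58.1, R 4.3.3; TMM, robust). Its 6 groups combined genotype, day and code, so that groups of 2 shared the estimate of spread. P-values were two-sided, adjusted by Benjamini-Hochberg over all tested genes and called below 0.05. SE is the size of the log2 fold change divided by the square root of F. Log2 CPM uses a prior count of 2. Where a group had no count, the fold is a bound against 3 counts over the group. At 3 counts or fewer, the ratio has an exact 95% interval, which covers counting error only. The script was tested on simulated data.

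Alternatives were DESeq2 1.42.0, RLE factors, no filter, fewer libraries, separate codes, a replicate block and leaving out each replicate. Named genes were the 10 largest rises and 10 largest falls among called genes with at least 5 CPM in the higher group and no overlap, leaving out clone, LOC, LINC, pseudogene and antisense names. Each list added up to 4 called genes at that level, or up to 2 with the smallest p where none was called. All other genes, including those given as not called, were picked with values in view, whether or not the text repeats it. Some genes of the lists are counted but not reported here by name. The members and lists were chosen with earlier results of these data known.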

Additional observations from a re-analysis of the deposited data

Results flagged for a closer look

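The code effect, B16 minus B27 and B29 at day 10, differed between wildtype and FEZ1-knockout organoids by the interaction test of the same edgeR fit in 1057 genes. For the first named gene of most lists, the log2 difference (wildtype effect minus knockout effect) was 8.33 for RELN, 8.24 for SYT4, 8.07 for TFAP2B, 7.56 for TBX3, 6.78 for SEMA3C, 6.61 for LMX1B, 6.16 for GDF7 and 6.02 for NRP2. It was 5.17 for ACTC1, 4.16 for HHIP, 3.89 for HEY2, 3.25 for COL5A2, 2.43 for NR2F1, 1.93 for TNC and 1.21 for NDRG1. The wildtype effect was the lower of both for SIX6 (-5.13), FGF17 (-3.99), FOXA1 (-3.36) and AIF1 (-2.44). Genes with 3 counts or fewer in a group are given by their adjusted p alone, which was 0.00298 for GFRA3, 0.00615 for WNT1, 0.0114 for RXRG and 0.0291 for ISL1. In each of these genes both B16 wildtype libraries lay outside the range of B27 and B29 wildtype. Among all 17757 tested genes, 13178 had both of them below or above both others. With knockout replicate 2 left out the count of genes was 7026, and with knockout replicate 4 left out 330. It was 443, 450 and 470 with wildtype replicates 2, 3 and 4 left out.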

How the results depend on the processing

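The 2983 genes called in wildtype became 3325 with DESeq2, 3008 with RLE factors, 2781 without the filter and 2447 with the day 10 libraries alone. They became 7769 with the wildtype day 10 libraries alone and 1884 with B27 and B29 as separate groups. Leaving out 1 wildtype replicate gave 999 (B16 replicate 2) to 1997 (B16 replicate 1). The 534 knockout calls became 1972 with DESeq2, 916 without the filter and 143 with day 10 alone. With the knockout day 10 libraries alone, edgeR called 0 (1452 at an unadjusted p below 0.05). Leaving out 1 knockout replicate gave 3 (B29) to 8203 (B16 replicate 2). The 1057 calls of the difference became 1738 with DESeq2, and 330 to 7026 with 1 replicate left out. With the replicate block there were 906. Deviations of libraries with the same number correlated at -0.04 and 0.07. Each value rests on 1 difference between libraries per genotype, so it cannot decide whether the numbers pair them. No paired analysis was possible for B16 against B27 and B29 within a genotype because these groups share no replicate number. Leaving out a wildtype replicate gave list medians of 4.23 to 5.19 for sensory neuron, 2.55 to 2.99 for proneural and 1.34 to 2.27 for roof plate genes. Some lists with few calls changed the sign of their median. Endothelium was at -0.21 with day 10 alone and -0.23 with wildtype day 10 alone, and at -0.10 to 0.65 with 1 replicate left out. Microglia and blood was at -0.59 and -0.61 in those subsets, with 2 genes tested in place of 7. The hedgehog median was -0.223 to 0.0248 with 1 replicate left out, and 7e-04 without B27. The cause of these changes was not tested. Of 116 named genes called, 72 were called in every alternative, 44 lost their call in at least 1 and 0 changed direction. NR2E1, SOX6, SLC1A2, PTPRZ1 and ESRP1 were among those that lost it in 6 or 7. With 2 libraries a group, genes with few counts in B27 and B29 carry wide intervals.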

Other observations

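Gene families taken by their symbols, chosen after their values were seen, are described here with no test of the family. Some of their members are also in the lists. All 3 ONECUT factors, regulators of early neurons in brain, retina and ganglia, were called higher in B16 wildtype. ONECUT2 was at 95.4 and 143 CPM in the B16 libraries and at 13.2 and 11.6 CPM in B27 and B29, and ONECUT1 at 25.8 and 35.8 CPM against 0.565 and 0.171 CPM. Of 68 potassium channel genes tested, 21 were higher and 1 lower; KCNA2, an axonal channel, was at 18.7 and 20.9 CPM against 0.206 and 0.171 CPM. Of 14 nicotinic receptor subunits 6 were higher and 2 lower, among them CHRND (12.2 and 20.7 CPM against 3.14 and 3.37 CPM) and CHRNG (6.64 and 8.44 CPM against 1.75 and 1.43 CPM), subunits best known from muscle. GRIA2, an AMPA receptor subunit, was at 35.9 and 46.2 CPM against 0.463 and 0 CPM.

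Of 21 cadherin genes, taken by a symbol of CDH and a number, 8 were higher and 2 lower. CDH15 was at 25.2 and 35.0 CPM against 0.463 and 0.742 CPM. Of 41 collagens 8 were higher and none lower; COL11A2 was at 49.1 and 75.7 CPM against 2.36 and 2.22 CPM. Among sarcomere genes TNNC2, the troponin C of fast muscle, was at 17.3 and 25.4 CPM against 0 and 0.228 CPM. Cytosolic ribosomal protein genes were higher in 22 of 80 and lower in 1, with a median log2 fold change of 0.20; for RPS29 the levels were 439.9 and 421 CPM against 124 and 116 CPM. The difference of the code effect between genotypes was called in none of these 80 by edgeR.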
